A study of Schizosaccharomyces pombe with 6 samples.

Results

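The genes described are 5 hexose transporter genes of fission yeast, Schizosaccharomyces pombe: ght1 (SPCC548.07c), ght8 (SPCC548.06c), ght2 (SPBC4B4.08), ght5 (SPCC1235.14) and ght6 (SPCC1235.13). They were taken by systematic ID from 6878 counted features, and all 5 had a row in every library. They belong to a family of 8 ght genes. The values are reads of small RNA pulled down with the Argonaute protein Ago1, not mRNA levels. The 24h group was wild-type cells of the 975 h+ strain sampled 24 h after a wash into minimal medium (EMM) without nitrogen. The 0h group was the same strain growing in supplemented EMM. Both were kept at 32 °C, with 3 libraries each. Beads binding the FLAG peptide were used for the pull-down, although the labels name no tagged ago1 allele, and the RNA kept was 20 to 30 nucleotides long after gel separation. That the RNA was bound to Ago1 therefore rests on the labels, and a library from cells without a tag was not analysed here.

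Hexose transporters of this family sit in the plasma membrane and carry sugar into the cell together with protons. Ght5 is the high-affinity glucose transporter that fission yeast needs when glucose is scarce, and its transcription is held down by the glucose repressor Scr1. Ago1 is the effector of RNA interference: loaded with small RNAs cut by Dicer, it is best known for guiding the histone methyltransferase Clr4 to pericentromeric repeats. The title of the study names a deployment of Clr4 to euchromatin. The comparison asks how the small RNA over these genes differed after 24 h without nitrogen, and the chromatin over them was not examined.

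The 24h libraries held 54393 to 758789 reads assigned to features and the 0h libraries 48040 to 145861, out of 1636419 to 33555536 and 9697745 to 24279396 aligned reads. Assigned reads were 2.26 to 5.39% of aligned reads at 24h and 0.495 to 0.601% at 0h, and the part of this gap in the results was not tested. Levels are given as CPM, counts per 1000000 assigned reads, after TMM scaling, which sets the typical feature at no change. In edgeR's quasi-likelihood test the starvation genes ste11 (log2 fold change 4.21, SE 0.45), mei2 (4.53, SE 0.49; 5.20 without 0h replicate 2), isp4 (3.63, SE 0.54) and isp7 (2.78, SE 0.48) were higher at 24h, with adjusted p between 0.000494 and 0.00314, and were so under every scaling used here. So was the other gene of this label check, isp5 (5 of 5). Of all tested features 13.1% were called higher with TMM, 33.1% scaled to assigned reads and 93.9% scaled to aligned reads. From their 0h libraries alone, ste11, mei2, isp4 and isp7 would have had too few counts to be tested, which favours a call of a rise. Nothing in the labels says whether replicates were separate cultures, so p-values measure the spread between these libraries, which may be technical. Libraries came from whole cultures, in which fewer cells carrying a small RNA and less of it per cell cannot be told apart.

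The 5 genes share enough sequence to affect what could be counted. Reads of low mapping quality, which include reads with several equal placements, were 90.3 to 95.1% of aligned reads at 24h and 94.2 to 96.4% at 0h, and were not assigned. In the RefSeq assembly ASM294v3, newer than the ASM294v2 named for these files, 40.7% of the 23-nucleotide windows along the ght5 transcript recur elsewhere in the genome, nearly all of them in ght8, which held 40.4%. For ght8 the share was 34.4%, with 33.2% in ght5. The coding sequences of ght8 and ght5 were 91.7% identical. These closest relatives are not neighbours in a pair: ght8 lies with ght1 (76.0% identity) and ght6 with ght5 (72.3%). Recurring windows were rarer in ght1 (10.4%), ght6 (9.12%) and ght2 (1.20%). Reads from a shared stretch have no single best placement, so the counts of ght5 and ght8 are uncertain as totals.

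**Figure D1:**
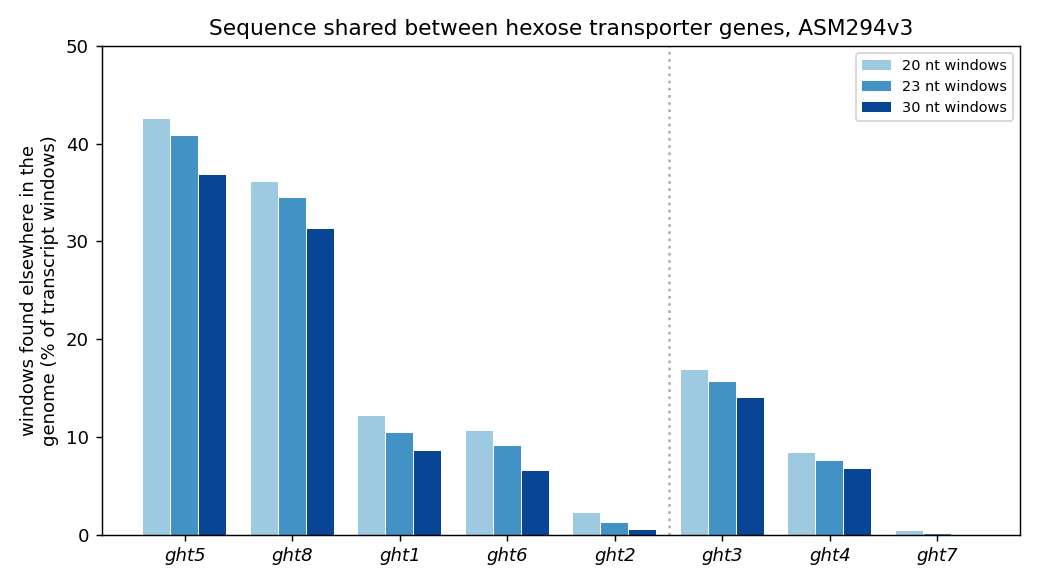
Share of 20-, 23- and 30-nucleotide windows of each annotated transcript (y axis, %) that occur at least once more in the genome assembly ASM294v3, for the 5 genes described (left of the dotted line) and the other 3 ght genes. At 23 nucleotides ght5 (40.7%) and ght8 (34.4%) stand above all others, and ght2 is nearly unique (1.20%).

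Small RNA over ght1, ght8 and ght2 was higher at 24h. These were 3 of the 4 genes with enough counts to be tested, and none was lower. By the same test, edgeR with a Benjamini-Hochberg adjusted p below 0.05, 13.1% of all 1716 features were called higher and 12.8% lower. At an unadjusted p below 0.05 the count for the 4 genes was also 3 higher and 0 lower, against 20.9% and 18.1% of all features. The other tested gene, ght5, had by far the most small RNA of the family in every library and did not pass. The untested gene, ght6, had next to none. For each of the 4 tested genes the lowest 24h library exceeded the highest 0h library in CPM. The same held for 24.3% of all tested features, and the opposite for 19.7%. ght1 had enough counts to be tested only through its 24h libraries. ght2 also needed a 24h library to be tested, as its 3 reads in 0h replicate 1 fell short. The separation and the call of ght1 and of ght2 were therefore partly set by the filter and are weak support for a rise. The log2 fold changes of the 4 genes ran from 0.93 to 2.72 with a median of 1.25, against a median of -0.02 over all tested features. The 3 calls were close to the threshold. Without each library in turn, between 0 and 2 of the 4 genes passed, 0 when 0h replicate 2 was left out, although 3 then still had an unadjusted p below 0.05. Calls over all features fell too. Without 0h replicate 2, 110 of 2263 tested features were called higher, against 224 of 1716 with all libraries. DESeq2, run on all 6 libraries, also called 3 higher and 0 lower at an adjusted p below 0.05, where it called 14.7% of all features higher and 14% lower. At an unadjusted p below 0.05 it called 4 higher and 0 lower, against 20.3% and 18.3% of all features.

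**Figure D2:**
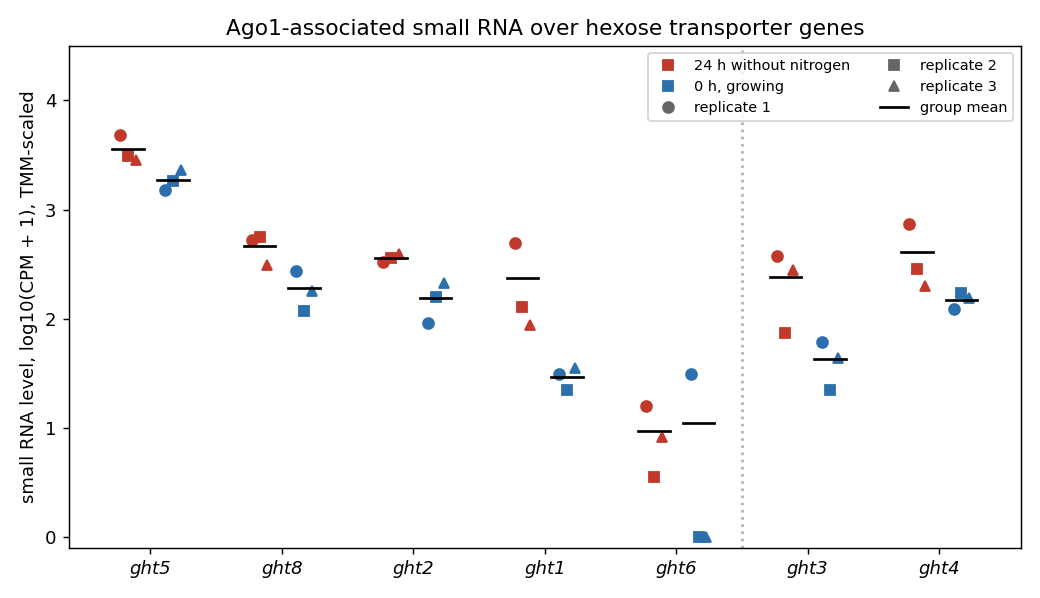
Small RNA level of each library as log10(CPM + 1) (y axis, TMM-scaled) for the 5 genes and, right of the dotted line, ght3 and ght4; red is 24h, blue is 0h, marker shapes are replicates and black lines are group means. For every gene shown except ght6 all 24h points lie above all 0h points, and ght5 is highest throughout.

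The high-affinity glucose transporter gene ght5 had 324, 1240 and 2348 reads in the 24h libraries, against 50, 172 and 271 in the 0h libraries. This was 0.596% (Wilson 95% interval 0.534 to 0.664), 0.496% (0.469 to 0.524) and 0.309% (0.297 to 0.322) of assigned reads at 24h. At 0h it was 0.104% (0.0790 to 0.137), 0.153% (0.132 to 0.177) and 0.186% (0.165 to 0.209). The intervals of the 24h and 0h libraries do not meet, and within 24h the replicates also differ beyond counting error. After TMM scaling the levels were 4838, 3122 and 2831 CPM at 24h and 1506, 1816 and 2310 CPM at 0h. The lowest 24h library stood above the highest 0h library by little, beside the spread within each group. The log2 fold change was 0.93 (SE 0.45, edgeR adjusted p = 0.153), and DESeq2 gave 0.92 (adjusted p = 0.0604). ght5 was thus not shown to change relative to the typical feature, whereas scaled to assigned reads alone the difference passed (1.65, edgeR adjusted p = 0.0241).

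The hexose transporter gene ght8, the closest in sequence to ght5, had 35, 222 and 258 reads at 24h and 9, 11 and 21 at 0h. Its levels were 523, 559 and 311 CPM in the 24h libraries, against 271, 116 and 179 CPM in the 0h libraries. The groups came nearest between 24h replicate 3 and 0h replicate 1. It rose by 1.37 on the log2 scale (SE 0.40, edgeR adjusted p = 0.0289). It did not pass when 24h replicate 1 (adjusted p = 0.0591) or 24h replicate 2 (0.0737) was removed, nor when 0h replicate 2 (0.149) or 0h replicate 3 (0.0982) was.

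The glucose and fructose symporter gene ght2, the member on chromosome II, had 22, 143 and 324 reads at 24h and 3, 15 and 25 at 0h. Levels were 329, 360 and 391 CPM at 24h, close together, and 90.3, 158 and 213 CPM at 0h. The log2 fold change was 1.13 (SE 0.35, edgeR adjusted p = 0.0353), the smallest of the 3 rises. It passed in 1 of the 6 fits that left out a library, the one without 0h replicate 3 (adjusted p = 0.0451), and was otherwise between 0.0566 and 0.132. Thinned to 48040 assigned reads per library, ght2 was at 0.36 (adjusted p = 0.562).

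The high-affinity glucose symporter gene ght1 had the largest fold change and the fewest reads of the tested members, 33, 50 and 72 at 24h and 1, 2 and 4 at 0h. Its levels were 493, 126 and 86.8 CPM in the 24h libraries and 30.1, 21.1 and 34.1 CPM in the 0h libraries. 24h replicate 1, the shallowest of its group, stood far above the other 24h libraries, which themselves stood above all 0h libraries. ght1 rose by 2.72 on the log2 scale (SE 0.84, edgeR adjusted p = 0.0342), and by 1.91 without 24h replicate 1 (adjusted p = 0.0277). Removal of a single 0h library, replicate 1, 2 or 3, ended the call (adjusted p = 0.0741, 0.154 and 0.10). The ratio of the pooled reads, which weights deep libraries more, was 4.20 (95% counting interval 1.99 to 10.6).

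The glucose and fructose symporter gene ght6 had 1, 1 and 6 reads at 24h, and 1, 0 and 0 at 0h. Its levels were 14.9, 2.52 and 7.23 CPM at 24h and 30.1, 0 and 0 CPM at 0h. The groups overlap, and a count of 0 allows up to 31.7 and 25.6 CPM in 0h replicates 2 and 3. The pooled ratio was 1.52 with a 95% counting interval of 0.203 to 67.3, so a difference was not detectable at this depth. Of the 23-nucleotide windows of ght6, 90.9% occur once in ASM294v3, against 59.3% for ght5; the part of sequence sharing in either count was not tested.

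Per length of transcript the genes kept a wide spread of levels. ght5 averaged 1743 ± 526 CPM per kb in 24h libraries and 909 ± 196 in 0h libraries (SD, n = 3 for each group), which was 9.42-fold and 12.1-fold above ght8, the next gene, without overlap in either group. ght8 had 185 ± 53.3 CPM per kb at 24h and 75.2 ± 31.0 at 0h, and ght2 159 ± 13.7 and 68.0 ± 27.1. In both groups the ranges of neighbours in the order overlapped from ght8 down to ght1. That order was ght8, ght2, ght3, ght4 and ght1 at 24h, and ght8, ght2, ght4, ght3 and ght1 at 0h. ght1 had 80.9 ± 77.0 CPM per kb at 24h and 9.78 ± 2.29 at 0h. ght6 followed with 4.15 ± 3.16 and 5.06 ± 8.76, apart from ght1 at 24h and overlapping it at 0h. Counted per kb of 23-nucleotide windows that occur once in ASM294v3, ght5 was at 2973 ± 896 CPM at 24h and 1551 ± 335 at 0h and ght8 at 284 ± 82.0 and 116 ± 47.7 (SD, n = 3). This changes only the length each count is divided by, and ght5 has the smallest unique share, so it could only raise ght5 relative to the others.

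As a sum, the 5 genes held 0.763, 0.662 and 0.396% of assigned reads in the 24h libraries and 0.133, 0.178 and 0.220% in the 0h libraries. Most of it was ght5, with 74.9 to 78.1% of the summed reads at 24h and 78.1 to 86.0% at 0h. Without ght5 the sum was 0.0870 to 0.167% of assigned reads at 24h and 0.0249 to 0.0343% at 0h. ght1 supplied 2.39 to 7.95% of the summed reads at 24h and 1.00 to 1.56% at 0h, and the ranges of ght8 and ght2 overlapped between the groups. These are descriptions of a chosen set, with no test.

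How large the difference appears depends on what the counts are set against. Scaled to assigned reads alone, all 4 tested genes were higher at 24h, with log2 fold changes of 1.65 for ght5, 1.85 for ght2, 2.16 for ght8 and 3.48 for ght1, where 33.1% of all tested features were called higher and 5.54% lower and their median was 0.69. Scaled to aligned reads the 4 values were 4.47, 4.68, 5.07 and 6.35, where 93.9% of all features were called higher and 0.233% lower and their median was 3.55. The level of ght5 per 1000000 aligned reads was 198, 267 and 70.0 at 24h and 5.16, 7.66 and 11.2 at 0h. The order of the 4 genes by fold change was the same under the 3 scalings in edgeR. In each scaling all 4 lay above the median of all features, ght5 nearest to it.

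**Figure D3:**
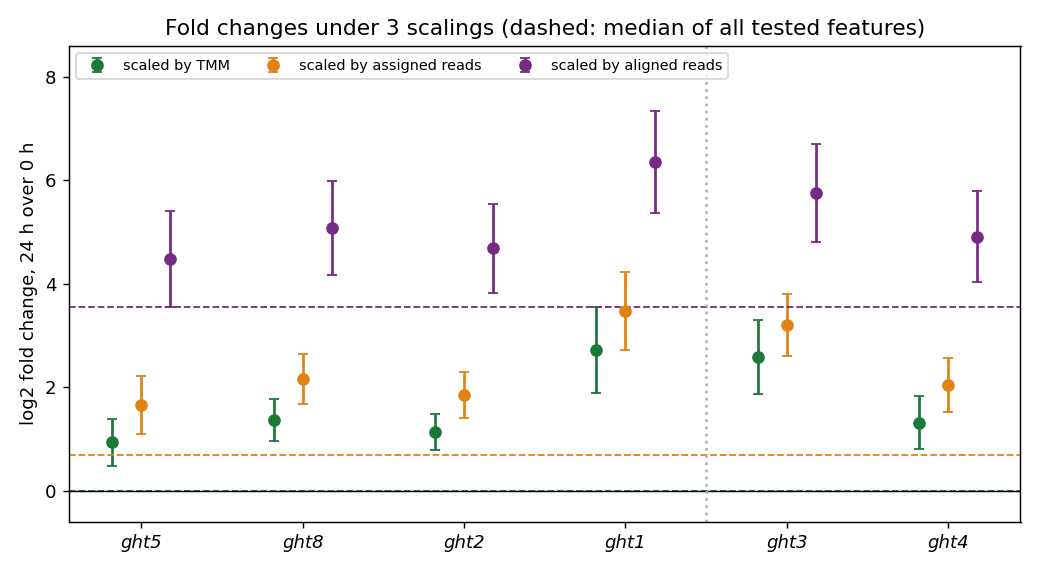
log2 fold change of 24h over 0h (y axis, points with SE from edgeR) for the 4 tested genes and, right of the dotted line, ght3 and ght4, with counts scaled by TMM (green), assigned reads (orange) or aligned reads (purple); dashed lines are the medians of all 1716 tested features (-0.02, 0.69 and 3.55). Points shift with the scaling, and every point stays above its own dashed line.

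**Figure D4:**
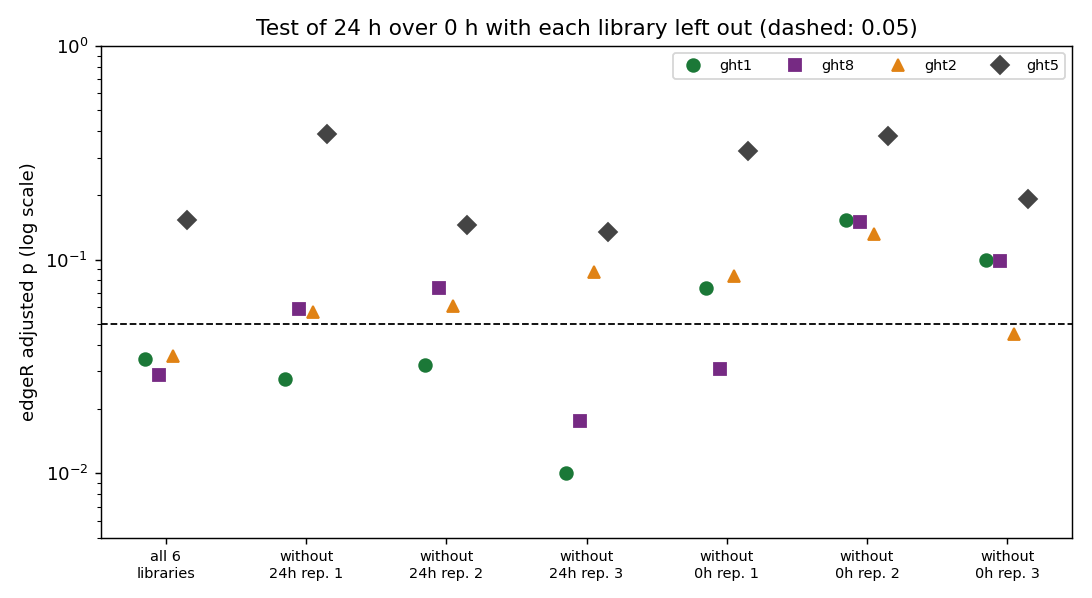
Benjamini-Hochberg adjusted p of edgeR's test of 24h over 0h (y axis, log scale) for ght1, ght8, ght2 and ght5 with all 6 libraries and with each library left out; the dashed line is 0.05. With all libraries ght1, ght8 and ght2 lie just under the line (0.0342, 0.0289 and 0.0353), and without 0h replicate 2 none does.

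Ratios between neighbouring genes within a library do not depend on how libraries are scaled. Where a count is near 0, however, the amount added to it makes the ratio follow depth. The log2 ratio of ght1 to ght8 reads, with 0.5 added to each count, was -0.08, -2.14 and -1.83 in the 24h libraries and -2.66, -2.20 and -2.26 in the 0h libraries. At this setting all 24h values lay above all 0h values, but 24h replicate 2 was close to 0h replicate 2. The difference was 1.02 (two-sided exact permutation p = 0.10, 0.20 adjusted over the 2 ratios), where 0.10 is the smallest p that 3 against 3 libraries allow. It was 0.39 without 24h replicate 1 and 2.15 with every library thinned to 48040 assigned reads. With 1 added to each count in place of 0.5 it was 0.81 (exact permutation p = 0.20), and the groups overlapped. For ght5 to ght6 the ratios were 7.76, 9.69 and 8.50 at 24h and 5.07, 8.43 and 9.08 at 0h, a difference of 1.12 within overlapping groups (exact permutation p = 0.60). It turned to -0.11 without 0h replicate 1. In 0h replicates 2 and 3 ght6 had 0 reads, so there the ratio rests on the added 0.5 and follows the reads of ght5. The difference of 1.12 therefore cannot be told apart from depth.

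ght6, ght5, ght8 and ght1 lie in this order within a single stretch of chromosome III. Of 15 counted features from ght6 to ght1, these 4 held 93.3% of the reads at 24h (4590 of 4918) and 90.6% at 0h (542 of 598). Most of these reads were over ght5 (3912 at 24h and 493 at 0h). ght6 had only 8 and 1, fewer than the features between it and ght5. Between ght6 and ght5, the uncharacterised SPCC1235.17 and SPCC1235.18 had 22 and 18 reads at 24h and 3 and 2 at 0h, against 3912 and 493 for ght5. Just beyond ght5, dga1, which makes the storage lipid triacylglycerol, had 192 reads at 24h and 30 at 0h and a log2 fold change of 0.04 (SE 0.49, edgeR adjusted p = 0.962). The noncoding SPNCRNA.1120, between ght8 and ght1, had 1 read at 24h and 0 at 0h.

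**Figure D5:**
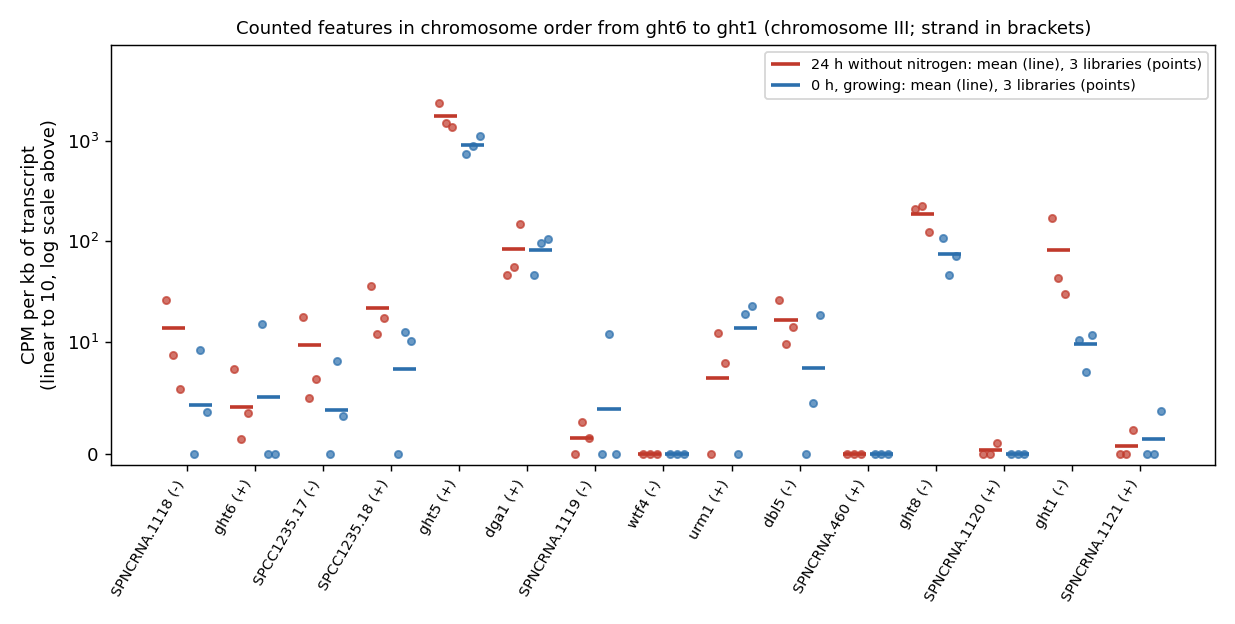
Level of every counted feature from ght6 to ght1 in chromosome order (x axis, strand in brackets) as CPM per kb of annotated transcript (y axis, linear to 10 and log above), with red for 24h, blue for 0h, points for libraries and lines for group means. ght5, ght8 and ght1 stand above the features shown next to them in both groups, ght1 at 0h on only 1, 2 and 4 reads. The highest other feature is dga1, beside ght5, at 82.7 CPM per kb at 24h and 82.5 at 0h.

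Strand matters at 2 of these genes. The noncoding SPNCRNA.1118 covers all of ght6 on the opposite strand and had 4, 8 and 11 reads at 24h and 0, 2 and 1 at 0h, more than ght6 in 5 of the 6 libraries. SPNCRNA.1121 covers 25.1% of ght1 on the opposite strand and had 4 reads at 24h and 1 at 0h. This nesting is that of ASM294v3. If ght6 also lay wholly inside SPNCRNA.1118 in the annotation used for counting, HTSeq could give it reads only if strand was used. Across the genome 85.4% of 575 features nested in a feature of the opposite strand had a count. Which strand was taken as a gene's own is not given in the sources used here.

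Beyond the outer ends of these loci, gcd1, listed as a glucose-6-phosphate 1-dehydrogenase, had 118 reads at 24h and 10 at 0h, and the transporter gene SPCC1529.01 44 and 20, against 155 and 7 for ght1 (SPCC1529.01 log2 fold change -0.96, SE 0.70, edgeR adjusted p = 0.336). gcd1 did not pass the filter on low counts and was not tested; its mean CPM was 4.84-fold higher at 24h, with all 24h libraries above all 0h libraries, and its level per kb was 75.9 CPM at 24h and 15.7 CPM at 0h, against 80.9 and 9.78 for ght1. dbl5 had 40 reads at 24h and 6 at 0h, mpc1 75 and 13, mug146 4 and 0, SPNCRNA.1119 2 and 1, and SPNCRNA.460 none. On chromosome II the splicing factor gene prp39, next to ght2, had 66 reads at 24h and 18 at 0h, against 489 and 43 for ght2. The other flanking genes of ght2 had 16 and 3 (vps25), 14 and 5 (usp102) and 21 and 1 (atg5). None of the 4 was tested. In CPM all 24h libraries lay above all 0h libraries for atg5 (1, 5 and 15 reads against 0, 1 and 0) and below them for prp39. Such separations, that of gcd1 included, were common: 24.3% of all tested features lay wholly above at 24h and 19.7% wholly below. gcd1 had 0 reads in 0h replicate 1.

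The other genes of the family fell on both sides of the threshold. ght3, which carries gluconate, had 25, 29 and 231 reads at 24h and 2, 2 and 5 at 0h, a log2 fold change of 2.58 (SE 0.71, edgeR adjusted p = 0.0216) that did not pass when 24h replicate 3 (0.0684), 0h replicate 2 (0.101) or 0h replicate 3 (0.0790) was removed. Like ght1, ght3 had enough counts to be tested only through its 24h libraries. The hexose transporter gene ght4 had 49, 112 and 164 reads at 24h and 4, 16 and 18 at 0h, and was at 1.31 (SE 0.51, edgeR adjusted p = 0.0801), and at 0.70 without 24h replicate 1 (adjusted p = 0.225). DESeq2 (adjusted p = 0.0389) and the fit without 24h replicate 3 (1.60, adjusted p = 0.0281) placed ght4 past the threshold. ght7 was at 0 in all 6 libraries, which allows up to 3.62 to 44.8 CPM at 24h and 25.6 to 90.3 CPM at 0h, and 99.9% of its 23-nucleotide windows are unique in ASM294v3. ght3 and ght4 are close to each other, with 81.4% identical coding sequence.

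Of 10 genes of glucose sensing through cAMP 8 were tested, 5 rose and none fell (0 also at an unadjusted p below 0.05, and 4 and 0 by DESeq2), with a median log2 fold change of 1.28. Over all tested features 13.1% were called higher and 12.8% lower, and the median was -0.02. Scaled to assigned reads 7 of the 8 were higher (33.1% of all features), and scaled to aligned reads all 8 (93.9%). They included git3, the glucose receptor (2.22, SE 0.49), cgs1, the regulatory subunit of protein kinase A (1.84, SE 0.44), git1 (2.06, SE 0.57), a C2 domain protein, and rst2, a transcription factor opposed by that kinase (1.34, SE 0.37), with edgeR adjusted p between 0.00886 and 0.0222. cyr1, the adenylate cyclase, was the fifth (1.22, SE 0.39, edgeR adjusted p = 0.0403). From their 0h libraries alone, git3, cgs1, git1 and rst2 would have had too few counts to be tested. Their calls were therefore partly set by the filter and are weak support for a rise. Removing 0h replicate 2 or 0h replicate 3 left 1 of the 5 calls, and removing 24h replicate 3 left 3. In these fits 110 of 2263, 139 of 1869 and 196 of 1844 tested features were called higher, against 224 of 1716 with all libraries. git1 was at 3.33 without 0h replicate 2 and lost its call without 0h replicate 1 (adjusted p = 0.0559) or 0h replicate 3 (1.53, adjusted p = 0.143). The genes that did not pass were git5 (0.86, edgeR adjusted p = 0.342), gpa2 (0.80, 0.183) and the kinase gene pka1 (0.38, 0.434).

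Among 11 tested genes of other sugar transport and use, 2 rose and none fell, also by DESeq2 (3 were higher and 1 lower at an unadjusted p below 0.05 in edgeR), with a median of 0.51. The share called higher, 2 of 11, was close to the 13.1% over all tested features. The rises were fbp1, the gluconeogenic fructose-1,6-bisphosphatase repressed by glucose (3.97, SE 0.80, edgeR adjusted p = 0.00573), and agl1, an enzyme that splits maltose (3.11, SE 0.68, edgeR adjusted p = 0.00838, 0.0531 without 0h replicate 2). Without 24h replicate 3, fbp1 was at 2.99 and agl1 at 2.31, both still past the threshold. With 0, 3 and 3 reads at 0h, fbp1 had enough counts to be tested only through its 24h libraries. The gluconate kinase gene idn1 was at 1.22 (SE 0.49) and the sucrose and maltose symporter gene sut1 at -0.95 (SE 0.38), both with edgeR adjusted p = 0.0897; sut1 was at 2.58 scaled to aligned reads. Scaled to assigned reads 6 of the 11 were higher, against 33.1% of all features, and scaled to aligned reads all 11, against 93.9%.

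Of 10 tested genes of glucose repression and of the control of Ght5 at the membrane, 1 rose and 1 fell, with a median of 0.06, near the 13.1% higher and 12.8% lower over all tested features. Scaled to assigned reads 2 were higher and 1 lower (33.1% and 5.54% of all features), and scaled to aligned reads all 10 were higher (93.9%). scr1, the repressor of ght5 and other glucose-repressed genes, rose by 1.44 (SE 0.41, edgeR adjusted p = 0.0262), and passed in 2 of the 6 fits that left out a library (adjusted p 0.0185 to 0.0916). The kinase gene ssp1, upstream of the AMP-activated kinase, fell by 1.83 on the log2 scale (SE 0.35, edgeR adjusted p = 0.00445), and by 1.06 scaled to assigned reads, but was at 1.81 scaled to aligned reads. The ubiquitin ligase gene pub1 (0.39, SE 0.34) and the corepressor gene tup12 (0.38, SE 0.35) did not pass. Genes of the TORC2 pathway that keeps Ght5 at the cell surface, tor1, ste20, sin1 and gad8, lay between -0.18 and 0.07.

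The levels of the tested genes moved together to different degrees over the 6 libraries. On log2(CPM + 1), Pearson's r was 0.95 between ght1 and ght5, 0.85 between ght1 and ght8, 0.72 between ght8 and ght5 and 0.57 between ght8 and ght2. These describe 6 libraries in 2 groups that share depth and scaling. The features most like each gene outside the family were picked as the highest r of all tested features, so a high r was built in. Those most like ght1 were scr1 and the noncoding SPNCRNA.1597 (r = 0.99 each), both highest in 24h replicate 1. Those most like ght8 were the protease gene htr12 and the translation factor gene sce3 (0.99 each), and those most like ght2 were edc1 and cgs1 (0.99 each). Unlike ght8, htr12 (log2 fold change 0.51, edgeR adjusted p = 0.337) and sce3 (0.65, 0.196) did not pass the threshold. The matches of ght1 and ght2 were called higher. For ght5 they were tps1, which makes trehalose phosphate (0.99), and sre2, a membrane-bound transcription factor (0.98). tps1 had a log2 fold change of 0.73 (SE 0.33) and sre2 of 0.82 (SE 0.34), neither past the threshold (edgeR adjusted p = 0.124 and 0.0955).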

How the data were processed

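The authors deposited, per library, unnormalised counts of reads for 6878 features and 5 HTSeq tally lines of unassigned reads, which stayed out of library totals and tests and left 0.495 to 5.39% of aligned reads in features. Cutadapt, Bowtie2 2.1.0, HTSeq 0.6.1 and the build ASM294v2 are named per the submitters' processing notes; options are not given in the sources used here. Names, neighbours, lengths and window sharing came from RefSeq ASM294v3, to which 6708 IDs matched, so no coordinates or sequences are printed.

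The test was edgeR's robust quasi-likelihood test (version 4.0.16, R 4.3.3) with group as its only term. Features passed filterByExpr at 10 counts, TMM factors scaled the libraries, and p-values were adjusted by Benjamini-Hochberg over the 1716 features left. Libraries of a single group could carry a feature past this filter, which favours features that differ between the groups. SE is the log2 fold change over the square root of F. The test was checked on simulated counts. DESeq2 1.42.0 was an alternative. Ratios used exact permutation tests (scipy 1.17.1); coding identity used global alignment in Biopython 1.88. Intervals are at 95% and, with floors of 3 counts, cover counting error only, since reads had no molecular identifiers.

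Named genes were the members, the family, the 2 nearest counted features on each side of each locus and those inside it, up to 4 tested genes of smallest p per list, and the 2 features most correlated with each tested member. cyr1, git5, gpa2, pka1, isp5 and the TORC2 genes were named after their values were seen. Members and lists were chosen with earlier results of these data known.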

Additional observations from a re-analysis of the deposited data

How the results depend on the processing

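The direction of ght1, ght8, ght2 and ght5 was the same in every alternative in which each was tested. Features called higher numbered 568 with assigned reads and 1611 with aligned reads, of 1716 tested in each. They numbered 479 of 6207 with no filter, 100 of 543 with a minimum count of 30 and 82 of 574 after thinning. In the same order, those called lower numbered 95, 4, 337, 76 and 66. Without each library in turn, features called higher ran from 110 to 204 and those called lower from 147 to 235, of 1663 to 2285 tested. The members called higher, 3 of 4 tested, were 1 of 3 with a minimum count of 30. After thinning they were 0 of 3 (edgeR, 1 at an unadjusted p below 0.05). In both settings ght1 had too few counts to be tested. Without each library the members called higher were 0 to 2 of 4. With a minimum count of 30 ght8 was at 1.19 (adjusted p = 0.0519). After thinning ght8 was at 1.11 (adjusted p = 0.0517) and ght2 at 0.36. ght5 passed with assigned reads (1.65) and aligned reads (4.47). Without each library in turn ght1 ran from 1.91 to 3.11, ght8 from 1.10 to 1.61, ght2 from 0.94 to 1.37 and ght5 from 0.71 to 1.04. The ght1 to ght8 ratio difference ran from 0.39 to 1.41 and was 2.15 after thinning (exact permutation p = 0.10), and that of ght5 to ght6 ran from -0.11 to 1.90. The cause of these shifts was not tested.

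Replicate numbers are shared between groups. Deviations of same-numbered libraries correlated at 0.01, 0.11 and 0.13, and those of libraries with different numbers at -0.12 to 0.02. All these values were low, and the numbers were not taken to pair libraries, although the values do not settle whether libraries were paired. With the replicate block, 279 features were higher and 271 lower, 3 members were called, and ght1 was at 2.40, ght8 at 1.33, ght2 at 1.17 and ght5 at 0.90 (edgeR adjusted p = 0.119); the block changed no call of a member and placed ght4 (1.03, edgeR adjusted p = 0.0437) and idn1 (1.23, 0.0498) past the threshold. Within replicate numbers, an exact sign-flip test of the 2 ratios gave p = 0.25 and 0.50. Depth limits ght6, with 9 reads in all, and ght1 at 0h, with 7.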
